A study of Bos taurus with 24 samples.

Results

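The enzymes and binding proteins that write, copy, read and remove methyl groups on DNA were examined in fibroblasts cultured from the skin of dairy and beef cattle. The 9 genes were chosen by name, for their role in DNA methylation, with earlier results of these data known: DNMT1, DNMT3A, DNMT3B, UHRF1, UHRF2, TET1, TET2, TET3 and MBD2. A gene was taken as the row of the deposited tables that carried its symbol, and where a symbol stood on several rows, as the row with the most reads over all samples. Of the 9 genes, 7 had such a row, among 27371 distinct symbols. The rule found no row with the symbol DNMT3B or TET1, and these genes were not analysed here. Of the 7, only TET3 had 2 rows, and its larger row was used.

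The cells came from 4 Holstein and 4 Angus heifers of matched age, and each animal gave 1 culture of dermal fibroblasts, cells that make and repair connective tissue. Cultures were stored frozen, revived together and grown in DMEM with fetal bovine serum, and polyadenylated RNA was sequenced at 0 h and at 2 h and 8 h after 100 ng/ml of lipopolysaccharide (LPS), an endotoxin of Gram-negative bacteria that switches on innate immune genes. This gave 24 samples in 6 groups of 4: Angus 0 h, Angus 2 h, Angus 8 h, Holstein 0 h, Holstein 2 h and Holstein 8 h. The labels name no untreated culture at 2 h or 8 h, so the effect of LPS and that of the time after it was added cannot be told apart. Each breed is represented by the same 4 animals at every hour, and breed cannot be told apart from anything else that differed between these 2 sets of animals.

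In mammals, DNA methylation sits mostly on the cytosines of CpG dinucleotides. DNMT3A and DNMT3B place methyl groups on unmethylated DNA. After each round of replication, UHRF1 binds the hemimethylated daughter DNA and brings in DNMT1, which copies the mark to the new strand, so this pair is needed most while cells replicate their genome. UHRF2 resembles UHRF1 in its domains but does not replace it in maintenance. The TET enzymes oxidize 5-methylcytosine, the first step of active removal, which base excision repair can complete. MBD2 binds methylated CpG sites and recruits the NuRD complex, which removes histone acetylation and remodels nucleosomes.

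Sequencing gave 51014538 to 104406293 counts per sample, and levels below are CPM, counts scaled to a library of 1000000, with library sizes adjusted by the TMM method (trimmed mean of M-values). A total of 3 counts, taken as the limit of detection, stood for 0.0287 to 0.0588 CPM, which covers counting error only. The 9 fibroblast markers summed to 39210 to 61950 CPM in the 12 Angus samples and 70170 to 91030 CPM in the 12 Holstein samples. Markers of leukocytes summed to 1.73 to 5.27 CPM, of endothelial cells to 0.959 to 3.49 CPM and of melanocytes to 1.43 to 3.23 CPM. The 3 keratinocyte markers, of which 1 was at 0 throughout, reached 10.5 to 13.0 CPM in the culture of Holstein animal 1 and at most 0.823 CPM elsewhere. The response to LPS was present in the cultures: the 4 genes used to check it (IL8, CXCL2, CCL2 and NFKBIA) rose by 3.89 to 8.36 on the log2 scale at 2 h. The reads of the collagen gene COL1A1 appeared to be counted in another way in 4 samples. These were Angus animal 4 and Holstein animals 2 and 4 at 0 h, and Angus animal 3 at 2 h. It was inferred from the coverage behind each COL1A1 count, at most 67.1 bases there and at least 111.8 bases elsewhere. The 4 samples also had the highest shares of matched reads, at 96.23% or more, where no other sample passed 95.25%. They may therefore differ in more than this gene. UHRF1 had 71.8 to 77.4 covered bases per count over all 24 samples, these 4 included, and the calls between the breeds at 0 h are given with and without them.

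Some of the rows overlap others, and the covered bases per count differed between rows. UHRF1 (chromosome 7, 20436669 to 20469912, minus strand, build UMD v3.1), UHRF2 (chromosome 8, 38568745 to 38625344), TET2 (chromosome 6, 21174710 to 21218829), TET3 (chromosome 11, 10545659 to 10571067) and MBD2 (chromosome 24, 54044120 to 54093686) had 68.1 to 98.1 covered bases per count. Of these, UHRF1 was overlapped over 6.6% of its length by LOC100848256 and over 2.4% by an interval without a symbol, which had at most 0.11 and 0.04 times its counts. The DNMT1 row (chromosome 7, 15913445 to 15956917) was overlapped over 89.8% of its length by an interval without a symbol that received 1.75 to 2.0 times its counts, and it had 126.8 to 142.2 covered bases per count. The DNMT3A row (chromosome 11, 73975870 to 74017267) shared 49.4% of its length with LOC100848258 on the opposite strand, which had 14.95 to 33.07 times its counts. A further 47.7% of the DNMT3A row was overlapped by an interval without a symbol, which had 0.71 to 1.77 times the DNMT3A counts. Each row spans a whole gene, introns included, so exons, introns and untranslated regions cannot be told apart, and without strand the reads of DNMT3A and LOC100848258 cannot either.

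The genes fell into those that differed mostly between cultures and those that differed mostly between hours. UHRF1 ranged from 21.96 to 120.46 CPM, and on the log2 scale its SD between the 4 cultures of a breed was 0.47 against 0.15 between the 3 hours of a culture. For DNMT1, which ranged from 26.29 to 76.34 CPM, these SDs were 0.33 and 0.11. The order was the other way round for the erasers, at 0.16 between cultures and 0.34 between hours for TET2 (10.39 to 23.71 CPM) and at 0.24 and 0.55 for TET3 (0.68 to 4.53 CPM). MBD2 was the steadiest between cultures, with an SD of 0.06 against 0.19 between hours, over a range of 74.81 to 110.45 CPM. UHRF2 (77.91 to 136.39 CPM) had SDs of 0.09 and 0.15. DNMT3A (0.51 to 1.45 CPM) reached 1 CPM in 9 of the 24 samples and passed the filter on low values in 1 comparison. CPM is not scaled by transcript length, so these levels do not rank the genes against each other.

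**Figure D1:**
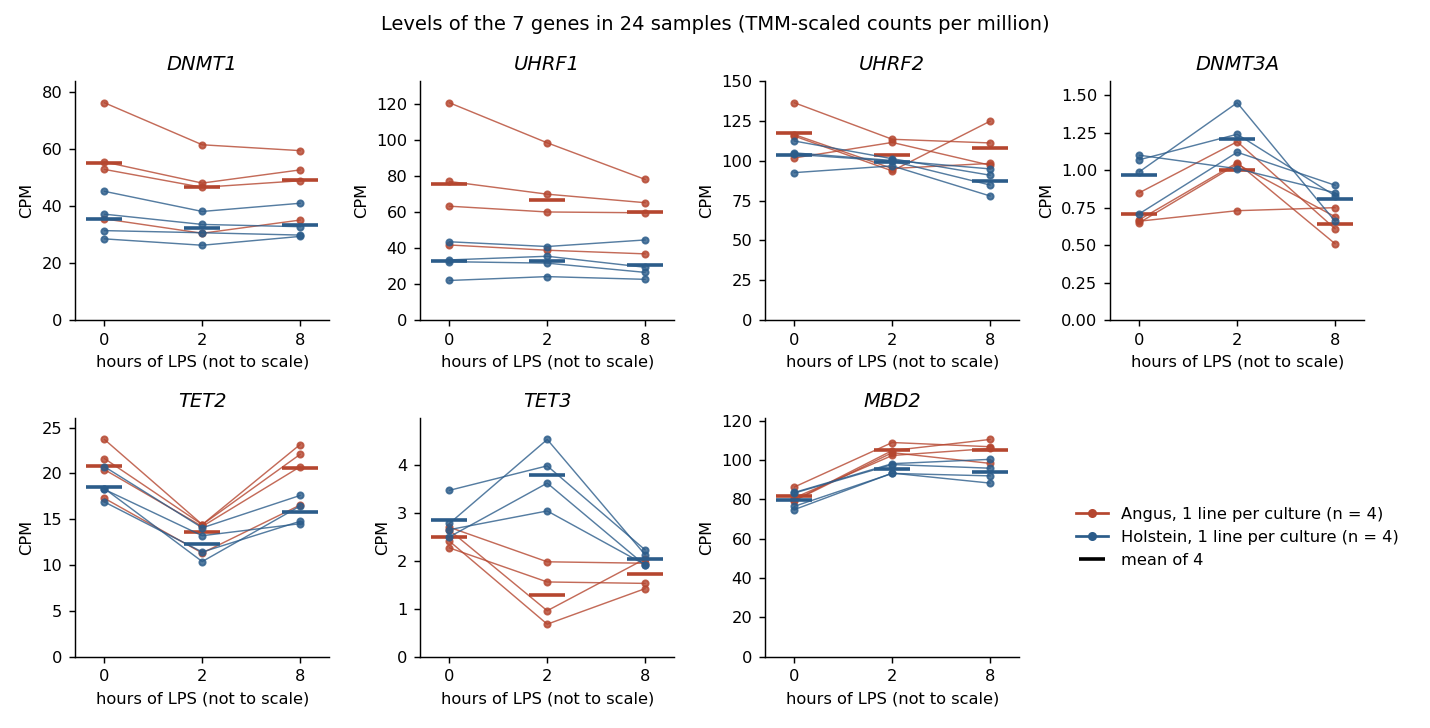
Level of each gene in CPM (vertical axis, from 0) at 0, 2 and 8 hours of LPS (horizontal axis, not to scale), with 1 line per culture (red, Angus; blue, Holstein; n = 4 each) and a short bar for the mean of 4. The UHRF1 lines keep their order within each breed, TET2 dips at 2 h in all 8 cultures, and the TET3 lines of the breeds part at 2 h, where Holstein cultures lie at 3.04 to 4.53 CPM and Angus cultures at 0.68 to 1.98 CPM.

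The maintenance pair was compared between the breeds first. UHRF1 was lower in Holstein than in Angus cultures at each hour, by 1.94-fold to 2.3-fold, and DNMT1 was lower at 0 h and 8 h, by 1.55-fold and 1.47-fold. At 0 h, UHRF1 stood at 76.83, 63.13, 41.63 and 120.46 CPM in Angus animals 1 to 4 and at 43.41, 33.35, 32.38 and 21.96 CPM in Holstein animals 1 to 4. The breeds overlapped in 1 pair of samples, since Angus animal 3 lay just under Holstein animal 1. The means were 75.5 ± 33.3 and 32.8 ± 8.77 CPM (SD, n = 4), a log2 fold change of -1.20 ± 0.31 (SE, 2.3-fold lower, FDR 0.00302 by edgeR's likelihood-ratio test over all 20385 rows tested).

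At 2 h, the Angus samples held 69.79, 59.93, 38.73 and 98.26 CPM of UHRF1 and the Holstein samples 40.78, 35.38, 31.56 and 24.1 CPM, a log2 fold change of -1.02 ± 0.27 (2.03-fold lower, FDR 0.00312). At 8 h, the levels were 65.08, 59.47, 36.71 and 77.99 CPM in Angus and 44.42, 29.27, 26.45 and 22.59 CPM in Holstein, and the log2 fold change was -0.96 ± 0.26 (1.94-fold lower, FDR 0.00504). At both hours Angus animal 3 again lay inside the Holstein range while the other 3 Angus cultures lay above it. The ranking of the cultures was the same at the 3 hours in each breed, with animal 4 highest and animal 3 lowest in Angus, and animal 1 highest and animal 4 lowest in Holstein.

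DNMT1, the methyltransferase that UHRF1 recruits, followed the same cultures. Its levels at 0 h were 55.56, 52.93, 35.56 and 76.34 CPM in Angus and 45.23, 31.43, 37.21 and 28.53 CPM in Holstein, with a log2 fold change of -0.63 ± 0.23 (1.55-fold lower) and an FDR of 0.0499, just within the limit of 0.05. At 2 h, the samples held 48.13, 46.64, 30.5 and 61.58 CPM in Angus against 38.16, 30.68, 33.6 and 26.29 CPM in Holstein, and the log2 fold change of -0.54 ± 0.21 did not pass the test (FDR 0.0537). At 8 h, the levels were 52.75, 48.94, 35.13 and 59.53 CPM against 41.03, 29.86, 32.81 and 29.39 CPM, and the log2 fold change of -0.56 ± 0.18 (1.47-fold lower) passed it (FDR 0.018). As for UHRF1, the breeds overlapped at each hour through Angus animal 3. The interval that covers most of the DNMT1 row was lower in Holstein as well, with log2 fold changes of -0.65, -0.59 and -0.62 at 0, 2 and 8 h (FDR 0.0368, 0.0311 and 0.0101), but since it can share reads with DNMT1 it is not a separate measurement.

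Counted over the genes, 2 of 6 tested passed the test between the breeds at 0 h, both lower in Holstein (UHRF1 and DNMT1), where 13.8% of all rows tested did. At 2 h it was 2 of 7, UHRF1 lower and TET3 higher, against 20.1% of all rows. At 8 h it was 3 of 6 (UHRF1, DNMT1 and TET2), each lower in Holstein, against 16.5%. When the counts of the 3 hours were summed to 1 library per culture, 3 of 6 passed, against 19.2% of all rows: UHRF1 (log2 fold change -1.09 ± 0.29, FDR 0.00329), DNMT1 (-0.59 ± 0.21, FDR 0.0293) and TET3 (0.59 ± 0.17, FDR 0.0082). Of the 4 samples of other counting, 3 were 0 h samples and included the highest Angus and the lowest Holstein culture, and without them UHRF1 was at -0.68 (FDR 0.293) and DNMT1 at -0.22 (FDR 0.831) on 3 Angus and 2 Holstein samples. Of the 6 genes 0 passed by edgeR's likelihood-ratio test in that fit, where 2.12% of all rows did, and 1 (UHRF1) had an unadjusted p under 0.05. At 2 h, without Angus animal 3, the values were -1.21 (FDR 1.18e-06) and -0.70 (FDR 0.000192), and no such sample was present at 8 h. By the quasi-likelihood F test on the same counts, UHRF1 passed at each hour (FDR 0.0487, 0.0342 and 0.0449) and DNMT1 at none (FDR 0.101, 0.0893 and 0.0559). With the hours summed, UHRF1 (FDR 0.0389) and TET3 (FDR 0.03) passed the F test and DNMT1 (FDR 0.0705) did not. In the summed likelihood-ratio fit without the 4 samples, UHRF1 (FDR 0.00277) and DNMT1 (FDR 0.0237) passed and TET3 (FDR 0.0517) did not.

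**Figure D2:**
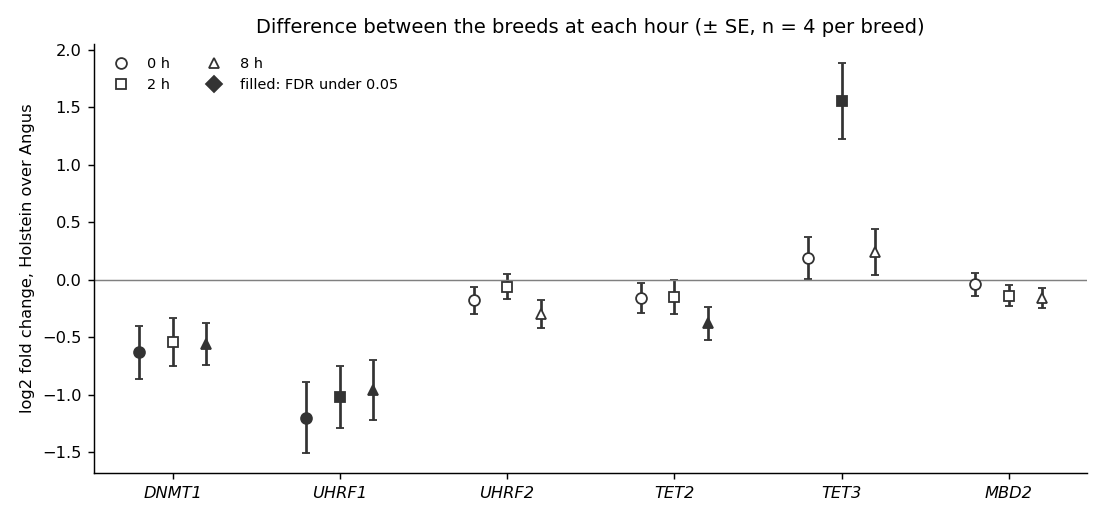
Log2 fold change of Holstein over Angus (vertical axis) with its standard error for 6 genes at 0 h (circles), 2 h (squares) and 8 h (triangles), 4 cultures per breed; filled symbols had an FDR under 0.05. UHRF1 lies near -1 at each hour, DNMT1 near -0.6, and TET3 rises to 1.55 at 2 h alone.

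Genes of DNA replication and mitosis moved with the pair. Of 14 replication genes, 13 were lower in Holstein at 0 h, 11 at 2 h and 13 at 8 h, against 6.98%, 9.71% and 7.78% of all rows tested, with a median log2 fold change of -0.88, -0.91 and -0.87, while the median over all rows tested was -0.002, -0.009 and 0.006. The leading genes at 0 h were RRM2, a subunit of the reductase that supplies deoxynucleotides (-1.26 ± 0.31, FDR 0.00147), and MCM3 and MCM5 of the replicative helicase (-1.02 ± 0.28 and -1.01 ± 0.28, FDR 0.00597 and 0.00557). All 10 mitosis genes were lower at each hour, TOP2A at 0 h by -1.84 ± 0.35 (FDR 2.97e-05). By the F test, the replication count was 4, 7 and 8 of 14 and the mitosis count 10, 10 and 8 of 10. Without the 4 samples of other counting, the counts at 0 h were 0 of 14 and 1 of 10, with medians of -0.48 and -0.85, where 1.07% of all rows were called lower. TOP2A was the 1 that passed (-1.29 ± 0.37, FDR 0.0431).

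The replication genes summed to 1142, 1106, 656.9 and 1604 CPM in Angus animals 1 to 4 at 0 h and to 713.5, 567.8, 615 and 453.6 CPM in Holstein. Angus animal 3, the Angus culture with the least UHRF1 and DNMT1, also had the lowest replication sum of its breed, and Holstein animal 4 the lowest of all. A higher share of cycling cells and more of these RNAs per cell cannot be told apart in bulk samples. The part that cell division, or the higher fibroblast marker sum in Holstein, has in the difference of UHRF1 and DNMT1 was not tested. The rows most like UHRF1 over the 24 samples, by Pearson's r of log2(CPM + 1), were SMC1A of the cohesin ring (r = 0.983), the helicase subunit MCM7 (0.98) and MYBL2, a cell cycle transcription factor (0.98). Those most like DNMT1 were CHTF18, which helps load the replication clamp (0.981), MCM3 (0.979) and MCM5 (0.976), and UHRF1 and DNMT1 had r = 0.96 with each other. These values are descriptions over samples that share 8 cultures.

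**Figure D3:**
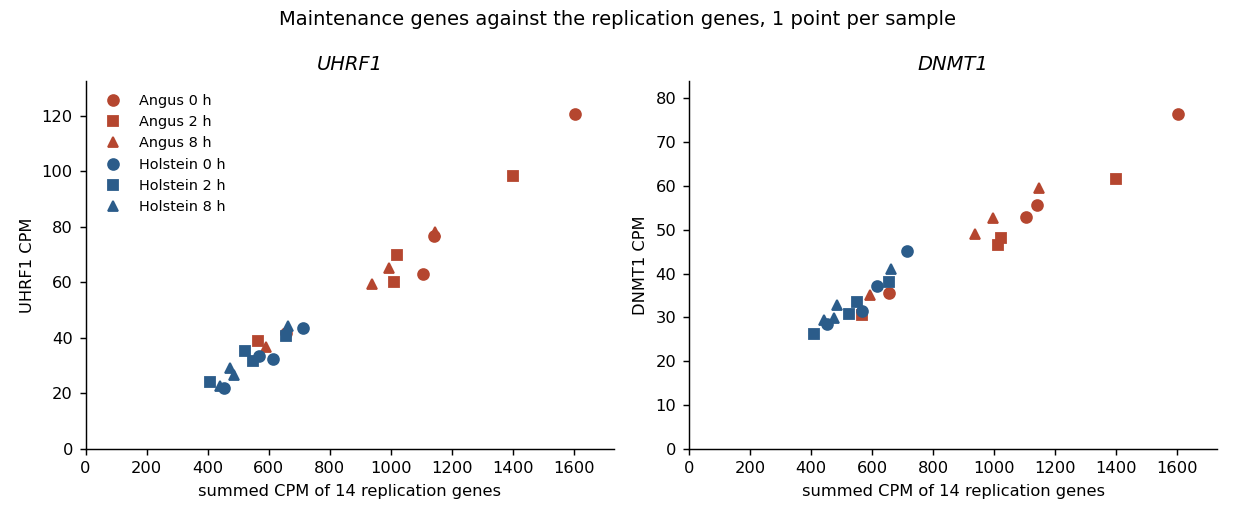
CPM of UHRF1 (left) and DNMT1 (right) against the summed CPM of 14 replication genes, all axes from 0, with 1 point per sample (red, Angus; blue, Holstein; circles 0 h, squares 2 h, triangles 8 h). The points of both breeds lie along 1 band, from Holstein animal 4 at the lower end to Angus animal 4 at the upper end, with Angus animal 3 among the Holstein samples.

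After LPS, the pair changed little. DNMT1 was lower at 2 h than at 0 h in 8 of 8 cultures, with mean log2 changes within a culture of -0.23 ± 0.06 in Angus and -0.14 ± 0.09 in Holstein (SD, n = 4). The fit without the animal did not call this (log2 fold change -0.21 ± 0.21, FDR 0.593), and the fit with the animal as a block did (-0.19 ± 0.04, FDR 9.13e-05), where 47.5% of all rows passed. At 8 h, DNMT1 (-0.12 ± 0.05, FDR 0.0493) and UHRF1 (-0.20 ± 0.07, FDR 0.0185) were called lower with the block and not without it (FDR 0.735 and 0.692). UHRF1 was below its 0 h level at 8 h in 4 of 4 Angus and 2 of 4 Holstein cultures. Angus animal 4 and Holstein animals 2 and 4 were of other counting at 0 h alone, and Angus animal 3 at 2 h alone. Changes from or to these samples, in any gene, cross that difference in counting. The largest UHRF1 change at 8 h, -0.63 on the log2 scale, was in Angus animal 4. Without that animal, the fit without the block gave -0.14 for UHRF1 and -0.09 for DNMT1 at 8 h, in place of -0.26 and -0.14. With the block, 9 of 14 replication genes were also called lower at 2 h and 12 at 8 h, against 1 and 0 without it. Of all rows tested, 25.3% and 21.2% were called lower with the block, and 11.2% and 6.25% without it.

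UHRF2, the relative of UHRF1, did not pass edgeR's likelihood-ratio test between the breeds at any hour. At 8 h its levels were 111.18, 98.32, 97.21 and 124.8 CPM in Angus and 84.78, 77.91, 94.89 and 90.94 CPM in Holstein. Every Holstein sample lay below every Angus sample at that hour, but the log2 fold change of -0.30 ± 0.12 had an FDR of 0.0639, and at 0 h and 2 h the breeds overlapped (-0.18 ± 0.12, FDR 0.348, and -0.06 ± 0.11, FDR 0.743). DESeq2 called UHRF2 lower in Holstein at 8 h (-0.31 ± 0.11, FDR 0.0259), and the F test did not (FDR 0.0714). The fit without Angus animal 3 called it at 8 h too (-0.36 ± 0.12, FDR 0.0177). Without the 4 samples of other counting, the 0 h value was -0.18 (FDR 0.806). From 0 h to 8 h it was lower in 7 of 8 cultures, at -0.19 ± 0.10 (FDR 0.242) without the block and -0.19 ± 0.06 (FDR 0.00276) with it. Its most similar rows were RASA1 (r = 0.806), CHMP2B (0.793) and TMEM27 (0.792).

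DNMT3A, the de novo methyltransferase, lay near the filter of 1 CPM, with 1637 reads over the 24 samples and as few as 48 in 1 of them. Its levels at 2 h, where it was tested, were 1.19, 0.73, 1.05 and 1.04 CPM in Angus and 1.45, 1.24, 1.12 and 1.01 CPM in Holstein, and the breeds overlapped (log2 fold change 0.26 ± 0.23, FDR 0.445). It was higher at 2 h than at 0 h in 7 of 8 cultures and lower at 8 h than at 2 h in 7 of 8. LOC100848258, the row on the other strand, moved the same way at far higher counts. It changed by 0.42 ± 0.11 from 0 h to 2 h (FDR 0.000686) and by -0.85 ± 0.09 from 2 h to 8 h (FDR 2.04e-20). Where these rows overlap, their courses cannot be told apart. The interval over 47.7% of the DNMT3A row, outside LOC100848258, changed by 0.35 ± 0.15 (FDR 0.0719) and by -0.72 ± 0.16 (FDR 8.74e-05) between these hours. This interval can share reads with DNMT3A and is not a separate measurement, and the source of its reads was not tested.

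Of the erasers, TET2 fell at 2 h and rose again by 8 h. At 2 h against 0 h, 2 of 6 genes passed the test, TET2 lower and MBD2 higher, while 22.0% of all rows tested did. TET2 stood at 23.71, 17.29, 20.42 and 21.63 CPM in Angus and at 16.89, 18.26, 20.74 and 18.35 CPM in Holstein at 0 h. At 2 h it was at 14.43, 11.32, 14.22 and 14.42 CPM and at 11.43, 13.21, 14.07 and 10.39 CPM. No sample at 2 h reached the lowest sample at 0 h. The log2 fold change was -0.61 ± 0.10 (1.53-fold lower, FDR 1.19e-07), and the 8 cultures fell by 0.47 to 0.82 on the log2 scale, on average by 0.61 in Angus and by 0.60 in Holstein.

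From 2 h to 8 h, TET2 rose in 8 of 8 cultures (log2 fold change 0.50 ± 0.12, 1.41-fold, FDR 0.000416) and was the single gene of 6 to pass between these hours, against 23.8% of all rows. At 8 h it stood at 23.15, 16.55, 20.73 and 22.08 CPM in Angus, each within 0.06 of its 0 h level on the log2 scale. The Holstein cultures held 14.78, 14.52, 17.6 and 16.44 CPM, 0.16 to 0.33 below their 0 h levels on that scale. The breeds differed at 8 h by -0.38 ± 0.14 (1.30-fold lower in Holstein, FDR 0.0458) with overlap through Angus animal 2, a call that was lost by the F test (FDR 0.0605). The comparison of the breeds' changes themselves gave -0.22 ± 0.18 (FDR 1.0), or -0.22 ± 0.09 (FDR 0.201) with the block. The rows most like TET2 were ZBED5 (r = 0.906), GTF2I (0.903) and PLEKHF2 (0.892).

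TET3 took opposite courses in the breeds at 2 h. In Angus it went from 2.64, 2.27, 2.7 and 2.41 CPM at 0 h to 0.96, 1.56, 1.98 and 0.68 CPM at 2 h. In Holstein it went from 2.65, 3.47, 2.5 and 2.78 CPM to 3.04, 3.98, 3.62 and 4.53 CPM. It was lower in 4 of 4 Angus cultures and higher in 4 of 4 Holstein cultures, with mean log2 changes of -1.07 ± 0.68 and 0.41 ± 0.25 (SD, n = 4). At 2 h every Holstein sample lay above every Angus sample (1.55 ± 0.33, 2.92-fold higher, FDR 0.000171), while at 0 h and 8 h the breeds overlapped (0.19 ± 0.18, FDR 0.556, and 0.24 ± 0.20, FDR 0.431). Without the 4 samples of other counting, TET3 was at 0.02 at 0 h (FDR 0.994).

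Whether the changes themselves differed was tested as an interaction of LPS and breed. At 2 h, 0.437% of all rows passed and 0 of the 6 genes did by edgeR's likelihood-ratio test, where 1 had an unadjusted p under 0.05 (TET3). It had an interaction of 1.37 ± 0.37 with an FDR of 0.0537, or 0.258 by the F test and 0.0316 by DESeq2. The interaction was not called with coverage in place of counts (FDR 0.0952), with annotated rows only (FDR 0.0801) or with DESeq2's scaling in edgeR (FDR 0.0571). With the animal as a block, where 4.28% of all rows passed, it was 1.46 ± 0.31 (FDR 0.000328), and with both block and F test it was 1.45 (FDR 0.0354). Without the block, the model of all 24 samples called it too (FDR 0.0091), as did the fits without Angus animal 3 (1.61, FDR 0.00243) and without the 4 samples of other counting (1.81, FDR 0.00754). The other 7 fits that left out 1 animal gave 1.16 to 1.51 and did not call it. At 8 h, 0.137% of all rows passed and 0 of the 6 genes by the same test, by the F test or by DESeq2, with 0 at an unadjusted p under 0.05 and interactions from -0.22 to 0.24. The TET3 row held 58 to 319 reads per sample. The second TET3 row, with 0.45 to 1.62 CPM, was lower at 2 h in 4 of 4 Angus cultures and higher in 3 of 4 Holstein cultures, and in a fit without the filter on low values it differed between the breeds at 2 h by 0.91 ± 0.29 (FDR 0.0331).

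At 8 h, TET3 was below its 0 h level in 8 of 8 cultures. The levels were 2.04, 1.53, 1.95 and 1.42 CPM in Angus and 1.92, 2.23, 1.91 and 2.13 CPM in Holstein, and no 8 h sample reached the lowest 0 h sample. The log2 fold change against 0 h was -0.50 ± 0.13 (1.42-fold lower, FDR 0.00176). TET3 and MBD2 were the 2 of 6 genes that passed at 8 h against 0 h, in opposite directions, where 12.8% of all rows did, and with the animal as a block 5 of 6 passed, the other 3 being DNMT1, UHRF1 and UHRF2, where 40.7% of all rows did. The 0 h samples are the same in the comparisons at 2 h and 8 h. The rows most like TET3 were ZBTB5 (r = 0.892), JARID2, a subunit of Polycomb repressive complex PRC2 (0.875), and LOC100848313 (0.861).

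**Figure D4:**
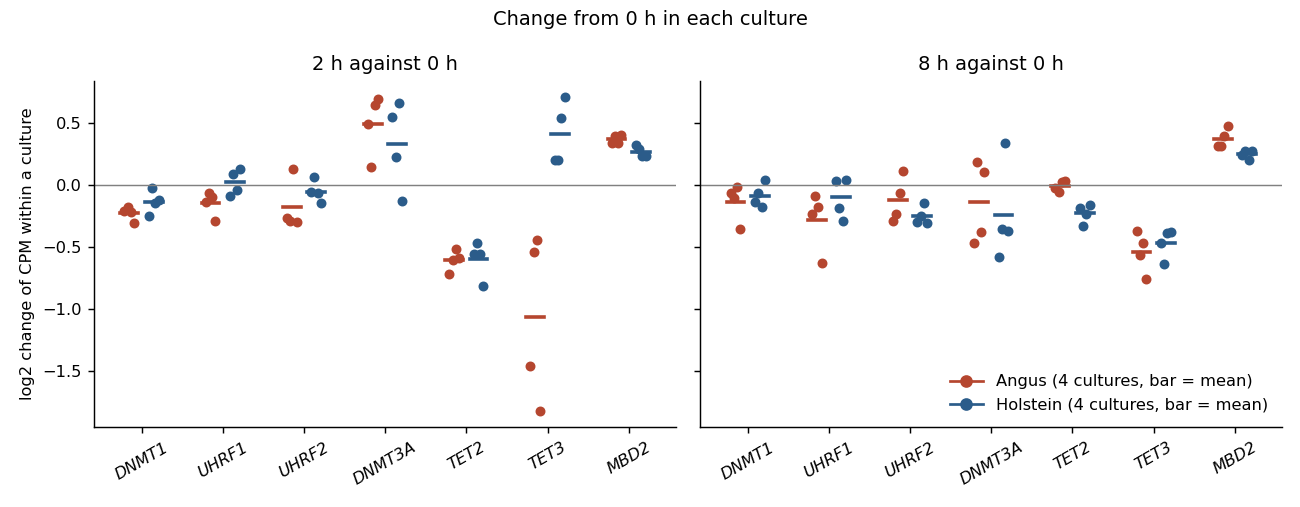
Log2 change of CPM from 0 h within each culture (vertical axis) at 2 h (left) and 8 h (right) for the 7 genes (red, Angus; blue, Holstein; 4 points each, with the bar at their mean). At 2 h, MBD2 lies at 0.23 to 0.40 and TET2 at -0.82 to -0.47 in the 8 cultures, and TET3 lies below 0 in Angus and above 0 in Holstein; at 8 h TET3 lies below 0 in all 8.

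MBD2, the reader among the genes, rose and stayed up. It stood at 86.31, 79.33, 80.81 and 79.56 CPM in Angus and at 74.81, 76.48, 83.22 and 83.5 CPM in Holstein at 0 h. At 2 h it was at 108.9, 103.74, 102.31 and 104.82 CPM and at 93.35, 93.19, 97.7 and 98.15 CPM. At 8 h it was at 106.76, 98.3, 105.87 and 110.45 CPM and at 88.28, 91.95, 95.85 and 100.34 CPM. Every sample after LPS lay above every 0 h sample, and it was higher in 8 of 8 cultures at each hour. The log2 fold change was 0.31 ± 0.06 at 2 h (1.24-fold, FDR 2.13e-05) and 0.30 ± 0.07 at 8 h (1.23-fold, FDR 0.000206), with no called change from 2 h to 8 h (0.997-fold, FDR 0.982).

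The rise of MBD2 was small but even. Within cultures it averaged 0.37 ± 0.03 in Angus and 0.27 ± 0.04 in Holstein at 2 h, and 0.37 ± 0.08 and 0.24 ± 0.03 at 8 h. At 2 h every Holstein sample lay below every Angus sample, yet the breed difference of -0.14 ± 0.09 did not pass the test (FDR 0.309), nor did the interaction (-0.09 ± 0.11, FDR 1.0). DESeq2 called the breed difference at 2 h (-0.14 ± 0.05, FDR 0.0372), and the F test did not (FDR 0.112). The rows most like MBD2 were ELK3, a transcription factor (r = 0.902), and GSPT1 and ETF1, the translation termination factors (0.895 and 0.891).

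Other genes around the methylation machinery were followed by lists. Among 6 partners of maintenance, PCNA, the replication clamp, and HELLS, a chromatin remodeller needed for methylation, were lower in Holstein at each hour, at 8 h by -0.74 ± 0.20 (FDR 0.00534) and -0.65 ± 0.16 (FDR 0.00132). CDCA7, which works with HELLS, passed at 2 h and 8 h (-0.85 ± 0.33, FDR 0.0478, and -0.70 ± 0.24, FDR 0.0298), so that 2, 3 and 3 of the 6 were lower at 0, 2 and 8 h and none higher, against 6.98%, 9.71% and 7.78% of all rows. By the F test 0, 1 and 2 were. After 2 h of LPS, CDCA7 was the 1 partner that passed, lower by -0.95 ± 0.27 (FDR 0.00312).

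Of 7 methyl-CpG readers other than MBD2, 3 passed at 2 h of LPS, where 22.0% of all rows did, and 0 passed between the breeds at 0, 2 or 8 h by edgeR's likelihood-ratio test. At an unadjusted p under 0.05 there were 0, 1 (MBD4) and 1 (MBD3) between the breeds, DESeq2 called 0, 1 and 1, and the F test 0. ZBTB38 fell by 0.94 on the log2 scale (SE 0.08, FDR 1.99e-26) and ZBTB4 by 0.40 (SE 0.09, FDR 7.87e-05), while ZBTB33, also known as Kaiso, rose by 0.28 (SE 0.07, FDR 0.00148). These 3 are zinc finger proteins that bind methylated DNA. At 8 h, 1 of the 7 passed against 12.8% of all rows, ZBTB4 at -0.30 ± 0.08 (FDR 0.00288).

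Of 9 tested genes of base excision and active demethylation, 3 passed at 2 h, where 22.0% of all rows did: the stress gene GADD45A was lower (-1.04 ± 0.12, FDR 6.79e-17), NEIL1, a DNA glycosylase, was lower (-0.55 ± 0.14, FDR 0.00138), and GADD45B was higher (0.78 ± 0.24, FDR 0.00799). GADD45B was higher in Holstein at each hour, at 2 h by 1.03 ± 0.16 (FDR 1.7e-08), a call that the F test kept at 2 h but not at 0 h or 8 h, and PARP1, which senses DNA breaks, was lower at each hour (at 8 h -0.41 ± 0.13, FDR 0.0148). TDG, the glycosylase that acts on the products of TET enzymes, did not pass at either hour of LPS or between the breeds. Among 4 tested regulators and cofactor enzymes of the TET proteins, CXXC5, which binds unmethylated CpG and is known to lower TET2 protein, rose by 1.75 on the log2 scale at 2 h (SE 0.11, FDR 4.11e-54). IDH2, which makes the cosubstrate of the TET enzymes in mitochondria, was lower in Holstein at each hour (at 8 h -0.74 ± 0.14, FDR 7.98e-06).

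Genes that supply methyl groups and partners in repression were followed in the same way. MAT2A, which makes S-adenosylmethionine (at 8 h -0.48 ± 0.12, FDR 0.00175), and AHCY, which clears its product (-0.39 ± 0.12, FDR 0.00919), were lower in Holstein at each hour. Of 8 repressors, SUV39H1, a histone H3 lysine methyltransferase, was lower at each hour (at 0 h -0.92 ± 0.26, FDR 0.006), and at 8 h TRIM28 (-0.42 ± 0.12, FDR 0.00791) and HDAC2 (-0.28 ± 0.10, FDR 0.0288) were too. Of all rows tested, 6.98%, 9.71% and 7.78% were called lower in Holstein at 0, 2 and 8 h. The median of the repressors at 8 h was -0.16, against 0.006 over all rows. The calls at 0 h of the 8 genes named from these lists as lower or higher at each hour were lost without the 4 samples of other counting. PCNA (-0.54, FDR 0.477), HELLS (-0.48, FDR 0.512), PARP1 (-0.24, FDR 0.62), IDH2 (-0.26, FDR 0.512), MAT2A (-0.26, FDR 0.633), AHCY (-0.25, FDR 0.642) and SUV39H1 (-0.51, FDR 0.501) stayed below 0 and GADD45B above it (0.48, FDR 0.481).

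**Figure D5:**
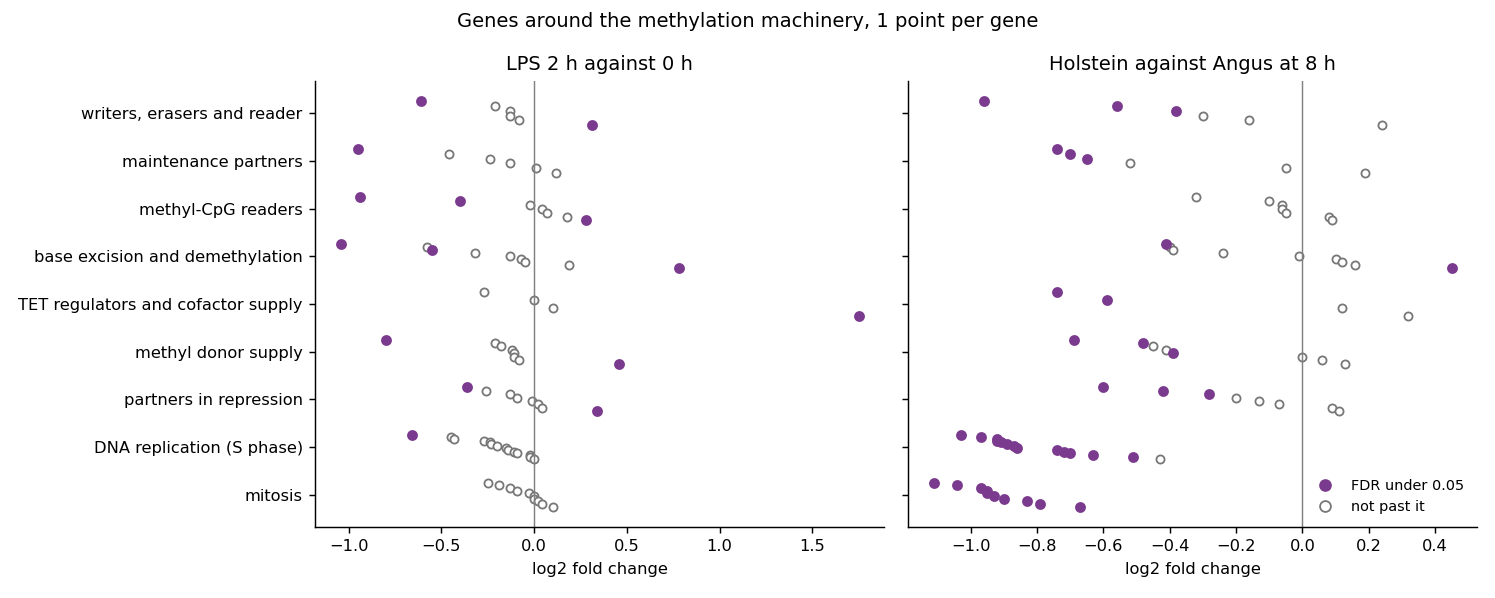
Log2 fold change of each tested gene (horizontal axis) by list (rows) for LPS 2 h against 0 h with both breeds (left) and Holstein against Angus at 8 h (right); filled points had an FDR under 0.05. The replication and mitosis genes lie left of 0 between the breeds, with 13 of 14 and 10 of 10 past the test, and CXXC5 stands apart at 1.75 at 2 h of LPS.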

How the data were processed

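RNA-Seq of 24 samples (6 groups of 4, group and animal number from the labels) was used. Per the labels and the study's methods, the authors called bases with CASAVA 1.7 and aligned filtered reads to UMD v3.1 with NextGENe 2.3.4. The deposited tables give raw read counts per row, not normalized, beside the mean coverage (signal), used here as a check. Of 59846 rows, 27550 carry a gene symbol. The others are intervals that took 12.28% to 20.53% of the counts and stayed in library sizes and tests. The study's methods speak of counts per annotated gene, and annotated rows alone were an alternative. Total counts were 51014538 to 104406293 per sample.

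edgeR 4.0.16 in R 4.3.3 fitted a generalized linear model with a likelihood-ratio test, as in the study, with TMM scaling. Rows with at least 1 CPM in at least 50% of the samples compared were tested with Benjamini-Hochberg adjustment over all rows (FDR), and a gene passed at an FDR under 0.05, with no limit on the fold. Each comparison used its own samples without a block. The hours of an animal are paired by the labels, and the deviations of paired samples from their group means had a mean correlation of 0.611 to 0.658 (lowest 0.432), so blocked values are given where they change a call. P-values between the breeds, and of the interaction without the block, measure the spread between the 4 animals of a group. Those between hours without the block take both breeds together, so their spread includes the difference between the breeds. With the block they measure the spread of the changes within animals. Standard errors come from the fitted model.

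Alternatives were the quasi-likelihood F test, DESeq2 1.42.0, another scaling, no filter, annotated rows only, 1 model of all samples, the block, leaving out each animal or the 4 samples of other counting and, chosen after seeing the data, coverage in place of counts with limma 3.58.1 (log2 with 0.01 added) and the block with the F test. The genes and lists were chosen with earlier results of these data known, and no set test or adjustment over a list is given. Named are the 9 genes, up to 3 genes past the test with the largest change per list, direction and comparison, and the 3 annotated rows most like each gene. TDG, MBD3 and MBD4 were added after their values were seen. Some results of the lists are not reported here. The scripts were tested on simulated data.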

Additional observations from a re-analysis of the deposited data

Results flagged for a closer look

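TET3 changed in opposite directions in the breeds at 2 h of LPS. It fell in 4 of 4 Angus cultures and rose in 4 of 4 Holstein cultures. The interaction was 1.37 on the log2 scale (Holstein minus Angus), with an FDR of 0.0537 by edgeR's likelihood-ratio test. The FDR was 0.258 by the F test, and 0.000328 by the likelihood-ratio test with the animal as a block. Of the 8 fits that left out 1 animal, 1 called it.

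In the groups of 4, 42 sets of levels (7 genes in 6 groups) were examined by Dixon's criterion for a sample that stands apart, and 2 did: DNMT3A in Angus animal 1 at 0 h, at 0.85 CPM against 0.65 to 0.67 in the other three, and TET2 in Angus animal 2 at 2 h, at 11.32 CPM against 14.22 to 14.43. Chance alone marks about 1 group in 20.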

How the results depend on the processing

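Of 958 values of single genes under an alternative, 890 stayed on the same side of the test, 43 lost the call, 25 gained it and 0 called values changed sign. The count of genes called at 8 h against 0 h went from 2 to 5 with the replicate block and to 6 with block and F test. At 8 h against 2 h it went from 1 to 2 without the CPM filter and with annotated rows, DNMT3A then being tested. Between the breeds at 0 h it went from 2 to 1 with the F test, DESeq2's scaling (RLE), no filter and a block on the animal number, and to 0 without the 4 samples of other counting and with coverage. It went to 4 with DESeq2 at 2 h, where DNMT1 and MBD2 were added, and to 1 with the F test and coverage at 8 h. DESeq2 added UHRF2 at 8 h. The interaction at 2 h went from 0 to 1 (TET3) with DESeq2 (FDR 0.0316), the model of all 24 samples, the block, block with F test, and without the 4 samples. Leaving out 1 animal gave 1 to 2 genes at 0 h, 2 to 3 at 2 h, 1 to 3 at 8 h and 0 to 1 for the interaction at 2 h, the latter called without Angus animal 3 (FDR 0.00243). DNMT1 between the breeds was called in 2 of 8 such fits at 0 h, 2 h, 8 h and summed, and TET2 at 8 h in 2 of 8, while UHRF1 was called in 8 of 8 at each hour and MBD2 and TET2 at 2 h of LPS in 8 of 8. The cause of these changes was not tested.

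Over all rows, the block on the animal raised the calls from 4436 to 9575 (2 h), from 2606 to 8282 (8 h), from 4822 to 9816 (8 h against 2 h), from 88 to 862 and from 28 to 528 (interactions). With block and F test they were 9961, 8598, 10089, 456 and 65. The F test gave 1654 in place of 2816 between the breeds at 0 h, and 28 and 0 for the interactions. DESeq2 gave 133 and 48 there, and coverage 25, 0 and, at 0 h, 1546. The model of all 24 samples gave 4447 at 8 h. Without the 4 samples there were 429 at 0 h and 7 for the interaction at 8 h, and leaving out Holstein animal 4 gave 1618, 2453, 1771 and 2226 between the breeds (0, 2, 8 h and summed). Rows with symbols alone gave 2935, 3206 and 54, as fewer rows were tested. Between breeds the numbers pair different animals, and that block changed no further call than DNMT1 at 0 h and summed (FDR 0.122 and 0.0834) and TET2 at 8 h (FDR 0.0723). Low counts limit DNMT3A and TET3.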
